A study of Mus musculus with 8 samples.

Results

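The loci described here are those of 10 genes of the TGF-beta signalling pathway, the ligand genes Tgfb1, Tgfb2 and Tgfb3, the receptor genes Tgfbr1, Tgfbr2 and Tgfbr3, the SMAD genes Smad3, Smad6 and Smad7, and Tgfbi, which encodes a matrix protein induced by TGF-beta. They were chosen by name among 21938 protein-coding genes of the mouse genome. For each of them, the ATAC-seq peaks that touched the gene body or the 50 kb to either side were counted in 4 deposited peak lists (coordinates are mm10). ATAC-seq uses a transposase to insert sequencing adapters into open DNA, so that a peak marks accessible chromatin. In all, 145 of the 101701 accessible regions of the series lay at these loci.

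TGF-beta ligands are secreted in a latent form and are released at the cell surface or from the matrix. They bind the type II receptor TGFBR2, which then phosphorylates the type I receptor TGFBR1, and the co-receptor TGFBR3 (betaglycan) presents ligand to this pair. The activated type I receptor phosphorylates SMAD2 and SMAD3, which enter the nucleus with SMAD4, while SMAD6 and SMAD7 are inhibitory SMADs that many cells induce as feedback. In fibroblasts the pathway drives matrix production, and in epithelial cells it promotes the change to a mesenchymal state, which fibroblasts have to reverse when they are reprogrammed to pluripotency.

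The 8 libraries came from 4 groups of 2. MEFs were mouse embryonic fibroblasts at day 0. The cells called OSKM day 5 and OSKM day 10 were such MEFs at day 5 and day 10 after infection with pMXs retroviruses carrying Pou5f1, Sox2, Klf4 and Myc (OSKM) together with a FLAG control vector, kept in ESC medium with vitamin C, and labelled wild type for Jmjd3. ESCs were embryonic stem cells. The labels give the strain C57BL/6J-OG2, which carries a reporter driven by Pou5f1 sequence, to the MEFs, both OSKM days and the second ESC library, and C57Bl6J to the first ESC library. They also place the ESCs on feeder fibroblasts, whereas the study's methods describe 2i/L medium on gelatin. Strain, medium and feeders can therefore not be told apart from cell type in any comparison with ESCs, and a culture of infected cells is a mixture in which fewer cells with an open site and a less open site in each cell cannot be told apart.

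Each group was deposited as 1 list, so there was no replicate list, no spread between replicates and no test, and every interval below is a 95% Wilson interval that covers counting error only. The lists held 56514 peaks in MEFs, 36219 and 35226 on OSKM days 5 and 10, and 48486 in ESCs. Read depth is not given by the lists, and a longer list can come from deeper libraries. Counts at the loci are therefore also given after each list had been reduced to its 35226 highest-scoring peaks, the length of the shortest list. Of 5 fibroblast markers (Thy1, Col1a1, Col1a2, Prrx1 and Twist2), 5 had a peak over a start site in MEFs, 3 and 1 on OSKM days 5 and 10, and 1 in ESCs. Of 5 ESC markers (Nanog, Esrrb, Dppa4, Tfcp2l1 and Zfp42), 5 did so in ESCs, 1 and 1 on OSKM days 5 and 10, and 2 in MEFs. The fibroblast list held 42 peaks in MEFs, 24 and 21 on OSKM days 5 and 10, and 13 in ESCs, and the ESC list 13, 14, 14 and 48. What the differences between these marker lists contribute at the 10 loci was not tested.

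Regions were formed by joining peaks of the 4 lists that lay within 400 bp of each other. A region was called MEF-specific if the MEF list and not the ESC list had a peak there, ESC-specific in the opposite case, common if both lists had one, and transient if an OSKM list had one while the MEF and ESC lists had none. Below are 200 bp windows at the middle of the widest peak of 8 such regions at these loci, read from the plus strand of GRCm38, because they are the stretches of DNA the results below turn on. They are, outside the Smad7 locus, the MEF-specific, ESC-specific and transient region with the most summed peak length, 3 MEF-specific regions with a match to AP-1, the MEF-specific region of Smad3 with the highest score, and a transient region of Tgfbr1. The last 2 were chosen after their values were seen, and the Tgfbr1 region was chosen for its octamer match. Capitals mark matches on either strand to the letters searched for AP-1 (TGACTCA), the octamer bound by OCT4 (ATGCAAAT), SOX factors (CCATTGT or CCTTTGT) and KLF factors (CCACACCC, CCACGCCC, CCCCACCC or CCCCGCCC), and windows without capitals held none of these and no match to the letters searched for TEAD factors (ACATTCC or GCATTCC) or to the SMAD palindrome GTCTAGAC. Over all regions of the series, the same search found AP-1 letters in 11.4% of windows, octamer letters in 2.19%, SOX letters in 10.1%, KLF letters in 11.1% and TEAD letters in 8.78%. Bases are counted from 1 at the left end of a window.
Tgfbi MEF-specific, 8.38 kb upstream, chr13:56601046-56601245: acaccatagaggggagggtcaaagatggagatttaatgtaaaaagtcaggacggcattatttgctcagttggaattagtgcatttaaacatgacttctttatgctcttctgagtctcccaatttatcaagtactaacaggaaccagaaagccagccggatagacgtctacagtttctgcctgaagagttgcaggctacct
Smad3 MEF-specific, intronic, chr9:63678028-63678227: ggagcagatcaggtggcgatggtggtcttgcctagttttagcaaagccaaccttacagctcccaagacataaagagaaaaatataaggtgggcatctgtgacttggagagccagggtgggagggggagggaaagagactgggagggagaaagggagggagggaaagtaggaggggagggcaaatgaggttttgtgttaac
Tgfbr3 MEF-specific, intronic, chr5:107167453-107167652: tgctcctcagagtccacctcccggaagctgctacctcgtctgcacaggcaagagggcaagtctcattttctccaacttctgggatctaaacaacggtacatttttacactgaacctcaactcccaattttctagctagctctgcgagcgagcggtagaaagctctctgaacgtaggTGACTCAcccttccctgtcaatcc
Tgfb1 MEF-specific, downstream, chr7:25711725-25711924: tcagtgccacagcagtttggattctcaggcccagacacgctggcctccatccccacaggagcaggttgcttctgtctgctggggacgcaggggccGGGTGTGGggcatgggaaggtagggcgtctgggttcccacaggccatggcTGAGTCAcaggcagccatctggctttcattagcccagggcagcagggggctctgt
Tgfb2 MEF-specific, downstream, chr1:186581645-186581844: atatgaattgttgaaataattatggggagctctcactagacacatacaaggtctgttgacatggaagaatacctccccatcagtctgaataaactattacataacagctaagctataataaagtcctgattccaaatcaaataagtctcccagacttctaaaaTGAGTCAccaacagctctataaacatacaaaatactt
Tgfbr3 ESC-specific, intronic, chr5:107128389-107128588: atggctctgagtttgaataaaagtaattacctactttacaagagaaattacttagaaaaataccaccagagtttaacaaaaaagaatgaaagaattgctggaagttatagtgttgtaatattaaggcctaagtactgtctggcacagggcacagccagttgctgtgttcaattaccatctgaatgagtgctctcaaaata
Tgfbr2 transient, intronic, chr9:116145179-116145378: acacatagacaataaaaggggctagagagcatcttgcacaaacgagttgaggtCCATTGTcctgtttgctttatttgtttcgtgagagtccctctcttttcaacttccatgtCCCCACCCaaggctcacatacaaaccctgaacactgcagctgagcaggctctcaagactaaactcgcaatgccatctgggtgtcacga
Tgfbr1 transient, intronic, chr4:47399760-47399959: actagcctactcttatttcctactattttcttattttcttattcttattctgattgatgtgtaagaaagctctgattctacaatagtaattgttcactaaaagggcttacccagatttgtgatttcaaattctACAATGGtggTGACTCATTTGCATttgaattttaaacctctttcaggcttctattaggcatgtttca

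The 10 loci together held 105 peaks in MEFs, 56 and 61 on OSKM days 5 and 10, and 49 in ESCs. MEFs thus had the most peaks and, at this flank, ESCs the fewest, although the ESC list was longer than either OSKM list. With a flank of 100 kb the order of the other lists turned, to 149 peaks in MEFs, 74 and 82 on OSKM days 5 and 10, and 79 in ESCs, which were then above day 5. The loci took 0.186% of the MEF peaks, 0.155% and 0.173% of those at day 5 and day 10, and 0.101% of the ESC peaks. The median locus had 9.5 peaks in MEFs, 6 on each OSKM day and 4.5 in ESCs, against medians over all protein-coding genes of 5, 3, 3 and 4. The windows of the loci were long, from 118 kb to 283 kb with a median of 165 kb, compared with a median of 117 kb over all genes. With lists of equal length the loci held 69 peaks in MEFs, 54 and 61 on OSKM days 5 and 10, and 33 in ESCs, so that MEFs stayed above the OSKM days by fewer peaks and the difference from ESCs went from 56 peaks to 36.

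**Figure D1:**
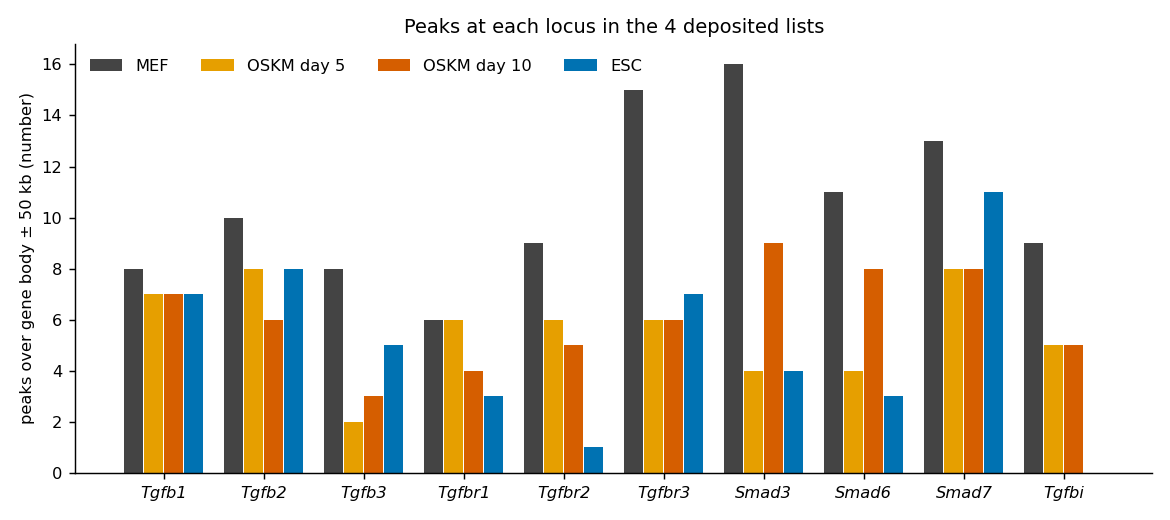
Number of peaks (y axis) over the gene body and 50 kb to each side of the 10 genes (x axis), with 1 bar for each of the 4 deposited lists. The MEF bar is the highest at 9 genes and level with day 5 at Tgfbr1, and Tgfbi has no ESC bar because it had 0 peaks there.

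Between MEFs and ESCs, all 10 loci had more peaks in MEFs, as 42.2% of all protein-coding genes did. This did not hold at the ligand genes under every way of counting. With a flank of 20 kb Tgfb1 and Tgfb3 had equal numbers in both lists, and with peaks given to the gene of the nearest start site Tgfb1 was equal and Tgfb3 had more in ESCs. A locus was called higher in a list if it had at least 2 more peaks and at least 2 times as many as in the other list. By this rule 6 of the 10 loci, Tgfbr1, Tgfbr2, Tgfbr3, Smad3, Smad6 and Tgfbi, were higher in MEFs than in ESCs, where 13.7% of all protein-coding genes were. The share was 14.9% among genes with windows in the length range of the 10 loci. None of the 10 was higher in ESCs, against 10.4% of all genes. The median difference was 5.5 peaks at the loci and 0 over all genes. With lists of equal length 4 loci (Tgfbr2, Tgfbr3, Smad3 and Tgfbi) were still called higher in MEFs, against 12.1% of all genes, and Smad7 had the same number in both lists. The call of Tgfbr1, 6 peaks against 3, was also lost with a flank of 20 kb or 100 kb, at a −log10 q of at least 2, with peaks given to the nearest start site and by peak length.

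**Figure D2:**
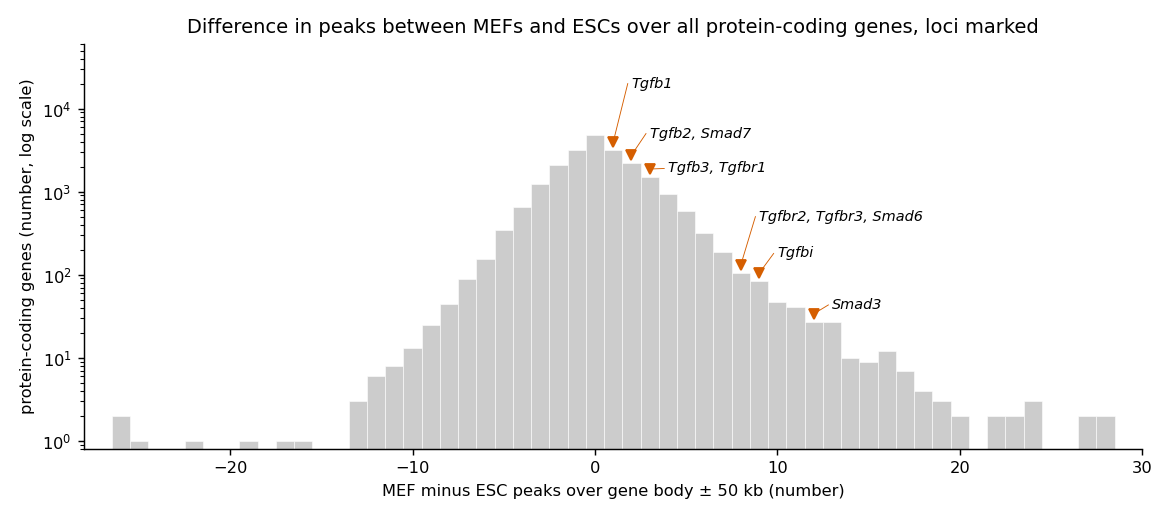
Number of protein-coding genes (y axis, log scale) at each difference between MEF and ESC peaks (x axis, MEF minus ESC), with the 10 loci marked by triangles. The loci lie between 1 and 12 peaks more in MEFs, and 1 gene with a difference of 119 lies beyond the axis.

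From MEFs to day 5, 4 loci were higher in MEFs (Tgfb3, Tgfbr3, Smad3 and Smad6), against 26.5% of all genes, and 0 were higher at day 5, against 2.29%. Tgfbr1 had 6 peaks in both lists and the other 9 loci had fewer at day 5. This loss is not set apart from that of the whole list. With lists of equal length 2 loci (Tgfb3 and Smad3) were called, against 9.40% of all genes, and Tgfb2, Tgfbr1 and Tgfbr2 had fewer peaks in MEFs than at day 5. The call of Tgfb3 was lost with a flank of 20 kb. With peaks given to the gene of the nearest start site, Tgfb3 had equal numbers in MEFs and at day 5. From day 5 to day 10, Smad3 and Smad6 were higher at day 10, 2 loci against 4.67% of all genes, and 0 were higher at day 5, against 2.99%. Neither call held at every flank, since Smad3 alone was called with 20 kb and Smad6 alone with 100 kb. From day 10 to ESCs, 4 loci (Tgfbr2, Smad3, Smad6 and Tgfbi) were higher at day 10, against 3.82% of all genes, and 0 were higher in ESCs, against 21.6%. With a flank of 100 kb only Tgfbi was called in this last comparison. These comparisons share lists, so their counts are not independent of each other. Smad3 and Smad6 are neighbours on chromosome 9, so they do not stand for independent stretches of the genome. Among genes with windows in the length range of the loci, 31.8% were higher in MEFs than at day 5. In that range 5.90% were higher at day 10 than at day 5, and 4.37% at day 10 than in ESCs. In the opposite directions these shares were 2.50%, 3.23% and 24.8%.

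**Figure D3:**
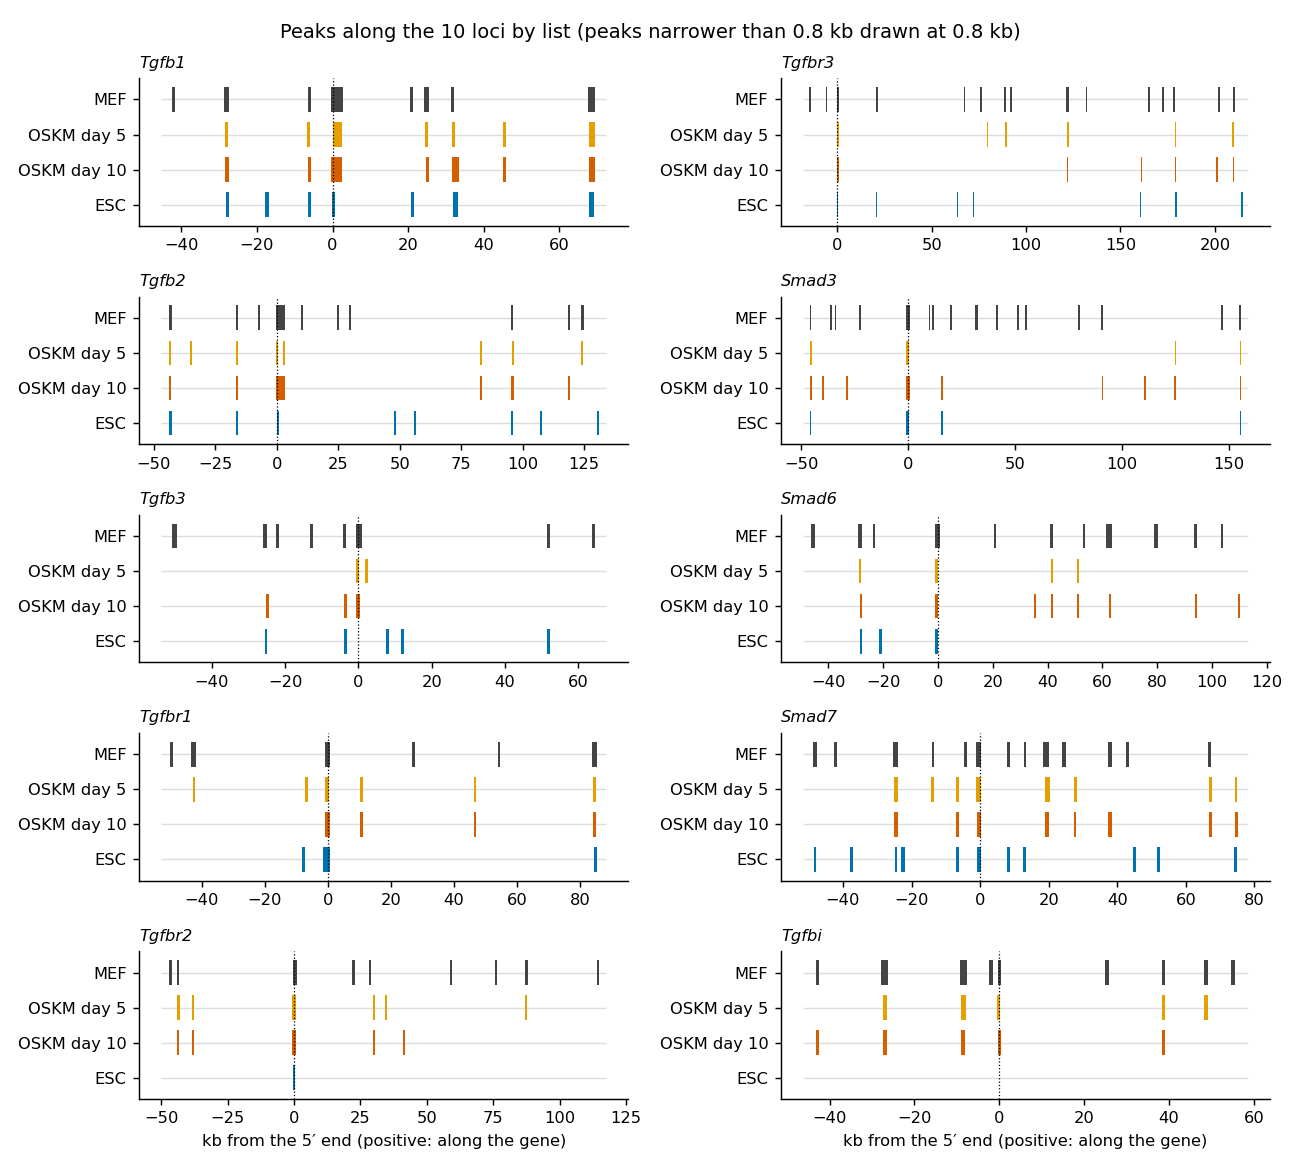
Position of each peak (bars) in the 4 lists along the 10 loci, as kb from the 5′ end of the gene (x axis, dotted line at 0, positive values along the direction of transcription). Smad3 has 8 intronic MEF peaks and Tgfbi has an empty ESC row.

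None of the 3 ligand genes was called between MEFs and ESCs. Tgfb1, the ligand gene expressed most widely, lies at chr7:25687002-25705077 on the plus strand and had 8 peaks in MEFs and 7 in each of the other 3 lists. Its window is crowded, with 6 other coding genes, and 6 of its 10 regions were common. The MEF-specific region printed above, 24.8 kb downstream of its 5′ end, had peaks on both OSKM days, and its window holds a KLF match at base 96 and an AP-1 match at base 146. Its 1 ESC-specific region lay 17.4 kb upstream of the 5′ end.

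Tgfb2, at chr1:186622792-186705989 on the minus strand, had 10 peaks in MEFs, 8 and 6 on OSKM days 5 and 10, and 8 in ESCs. Its 16 regions were spread over 6 MEF-specific, 4 ESC-specific, 4 common and 2 transient ones. The lists differed more in which regions were open than in how many. ESCs had a peak of 625 bp over an internal start site of the gene, 56.1 kb from the 5′ end, where no other list had one. The printed MEF-specific region, 124 kb downstream of the 5′ end, was kept at day 5 and not at day 10 and has an AP-1 match at base 164.

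Tgfb3, at chr12:86056745-86079041 on the minus strand, had 8 peaks in MEFs, 2 and 3 on OSKM days 5 and 10, and 5 in ESCs. By this count both OSKM days were below both end points. The window also holds the coding genes Ttll5 and Ift43. Start sites of other coding genes accounted for 2 MEF peaks, 0 day 5 peaks, 1 day 10 peak and 1 ESC peak. Giving each peak to the gene of the nearest start site left day 5 level with MEFs. Day 10 was then below day 5, and ESCs were above MEFs. The day 5 peaks were 623 bp and 300 bp wide and carried the same peak name, so they look like pieces of 1 called peak that spans the start site, with a gap of 2082 bp between them. In ESCs the nearest peak lay 3490 bp upstream of the 5′ end, while 2 ESC-specific regions lay in introns.

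The receptor genes had fewer peaks in ESCs than in MEFs, by 8 peaks each at Tgfbr2 and Tgfbr3 and by 3 at Tgfbr1. Tgfbr1, which encodes the type I receptor ALK5, lies at chr4:47353222-47414931 on the plus strand and had 6 peaks in MEFs, 6 and 4 on OSKM days 5 and 10, and 3 in ESCs. The equal numbers in MEFs and at day 5 hide a change of sites, since 3 of its 10 regions were transient and 4 MEF-specific, of which 1 had a peak at day 5. The transient intronic region printed above, 46.6 kb from the 5′ end, was open on both OSKM days, with an authors' fold enrichment of 4.79 and rank 6052 of 36219 by score at day 5. In its window a SOX match begins at base 134, an AP-1 match at base 144 and an octamer match at base 150, so the last 2 share 1 base. The region was picked for its octamer match, so the presence of that match is fixed by the choice.

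Tgfbr2, the type II receptor gene at chr9:116084293-116175360 on the minus strand, had 9 peaks in MEFs, 6 and 5 on OSKM days 5 and 10, and 1 in ESCs. The ESC peak was the one over its start site, with a fold enrichment of 3.03 and rank 35773 of 48486. This peak was not among the 35226 highest-scoring ESC peaks, so that the locus had 0 ESC peaks and 5 MEF peaks with lists of equal length. Of its 13 regions 8 were MEF-specific, 4 transient, 1 common and 0 ESC-specific. The transient region with the most peak length over the 10 loci lay in an intron of Tgfbr2, 30.1 kb from the 5′ end, and had a peak on both OSKM days. Its printed window has a SOX match at base 54 and a KLF match at base 113.

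Tgfbr3, at chr5:107106570-107289629 on the minus strand, is the longest of the 10 genes and had 15 peaks in MEFs, 6 and 6 on OSKM days 5 and 10, and 7 in ESCs. Most of the MEF peaks lay within the gene, 11 of 15. Of its 20 regions 12 were MEF-specific, and 4 of these 12 had a peak on an OSKM day. The printed intronic MEF-specific region, 122 kb from the 5′ end, had a fold enrichment of 5.22 and rank 2712 of 56514 in MEFs, was open on both OSKM days, and has an AP-1 match at base 177. The printed ESC-specific region, 161 kb from the 5′ end, had a peak at day 10 and none at day 5.

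The largest difference between MEFs and ESCs among the loci was at a SMAD gene. Smad3, which encodes the signalling SMAD of this list, lies at chr9:63646767-63757994 on the minus strand and had 16 peaks in MEFs, 4 and 9 on OSKM days 5 and 10, and 4 in ESCs. A difference of 12 peaks or more between MEFs and ESCs was found at 113 of the 21938 genes (0.515%). The window of Smad3 was 211 kb long, against a median of 117 kb over all genes, and this share is not matched for window length. In MEFs 2 of the intervals, 399 bp and 624 bp wide, shared 1 peak name, and counting them as 1 peak left 15 peaks and a difference of 11, which 0.661% of genes reached. With lists of equal length the difference was 8, as at Tgfbr3. In MEFs 8 of the 16 peaks were intronic, compared with 0 and 2 on OSKM days 5 and 10, and 1 in ESCs. Its 13 MEF-specific regions included 1 that was open at day 10 and 0 that were open at day 5, and of the 5 peaks that day 10 had beyond day 5, 3 lay in transient regions, 1 in an ESC-specific region and 1 in a MEF-specific region. The intronic region printed above, 79.9 kb from the 5′ end, was open in MEFs alone, with a fold enrichment of 6.09 and rank 288 of 56514.

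Smad6, an inhibitory SMAD gene that mainly restrains BMP signalling, lies at chr9:63953076-64022059 on the minus strand and had 11 peaks in MEFs, 4 and 8 on OSKM days 5 and 10, and 3 in ESCs. Like Smad3 it had more peaks at day 10 than at day 5. Of the 9 MEF-specific regions here, 3 were open at day 10 and 1 of these at day 5 too, and 3 regions were transient. With lists of equal length it had 5 peaks in MEFs, 3 and 8 on OSKM days 5 and 10, and 3 in ESCs, so that day 10 was then above MEFs. An ESC-specific region lay 21.1 kb upstream, with a fold enrichment of 4.58.

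Smad7, which encodes the inhibitory SMAD that targets TGFBR1, had 13 peaks in MEFs, 8 and 8 on OSKM days 5 and 10, and 11 in ESCs. It had the most ESC peaks of the 10 loci, 10 if a pair of intervals of 785 bp and 921 bp with the same peak name is counted as 1. Of its 20 regions 8 were MEF-specific, 6 ESC-specific, 5 common and 1 transient. The ESC-specific region with the most peak length lay 74.5 kb downstream of the 5′ end and was open on both OSKM days, with a fold enrichment of 6.35 and rank 546 of 36219 at day 5. A second ESC-specific region, 6.51 kb upstream, also had a peak on both days, and these 2 are the ESC-specific regions of the 10 loci that were open at day 5.

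Tgfbi lies at chr13:56609523-56639562 on the plus strand, with no other coding gene in its window, and had 9 peaks in MEFs, 5 and 5 on OSKM days 5 and 10, and 0 in ESCs. It was the locus without any ESC peak. Of the 3140 protein-coding genes with at least 9 MEF peaks, 6 had 0 ESC peaks (0.191%), and Tgfbi was one of them. Both limits were taken from the counts of Tgfbi itself, so this share is a description and not a test. All 9 of its regions were MEF-specific, and 6 of these had a peak on an OSKM day, 5 at day 5 and 5 at day 10. Regions 27.1 kb and 8.38 kb upstream of the 5′ end were open on both days. The first had a fold enrichment of 4.03 in MEFs and of 4.46 and 3.50 on OSKM days 5 and 10, and the second, printed above, 4.24, 2.87 and 3.07. The printed window held none of the matches marked in capitals.

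Peaks over start sites differed less in number than those elsewhere, but the few start sites of a gene limit how many such peaks it can have. A peak covered an annotated start site of the gene at 10 of 10 loci in MEFs, 8 and 10 on OSKM days 5 and 10, and 7 in ESCs, where 60.0%, 52.1%, 56.0% and 55.8% of all protein-coding genes had one. The loci without such a peak were Tgfb3 and Tgfbi at day 5, and Tgfb1, Tgfb3 and Tgfbi in ESCs. Some of these absences are a matter of a few bases. At day 5 the nearest peak ended 66 bp short of the 5′ end of Tgfbi, was 102 bp wide, and that of Tgfb3 ended 23 bp short. In ESCs a peak of 444 bp with a fold enrichment of 2.53 lay 59 bp past the 5′ end of Tgfb1. Counting any peak within 1 kb of a start site gave 10 loci in MEFs, 10 and 10 on OSKM days 5 and 10, and 8 in ESCs, and Tgfb3 and Tgfbi were the loci without one in ESCs.

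**Figure D4:**
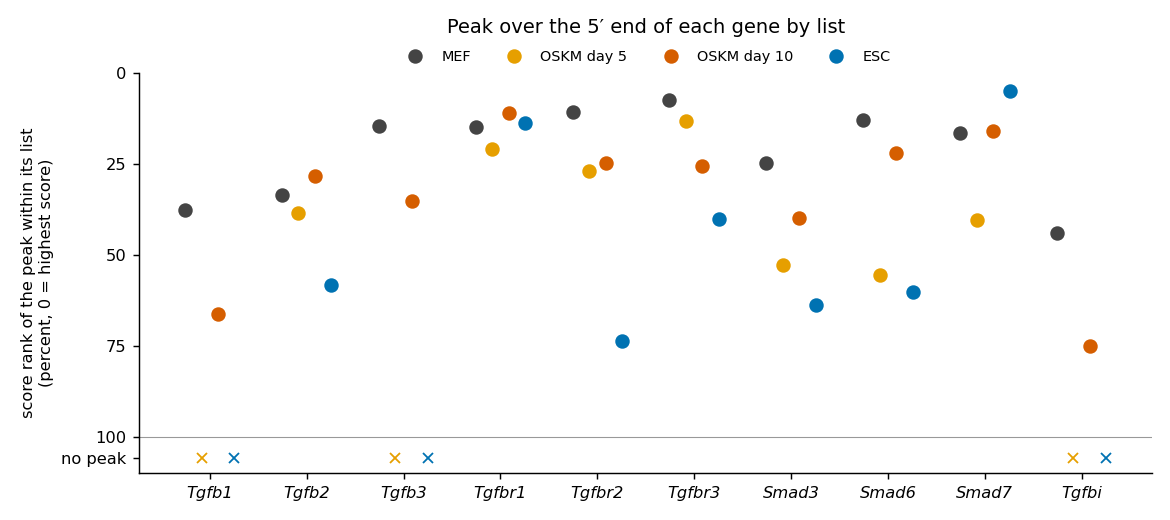
Rank by score, within its own list, of the peak over the 5′ end of each gene (y axis, percent of the list, 0 is the highest score; x axis, gene), with crosses where no peak covered the 5′ end. Smad7 is the gene whose ESC peak ranked above that of the other lists, at 5.01% of the list, while the ESC peak of Tgfbr2 ranked at 73.8%.

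At 5 of the 7 genes with a start-site peak in ESCs, the peak over the 5′ end ranked lower in the ESC list than in the MEF list. Tgfbr2 went from 10.8% of the MEF list to 73.8% of the ESC list, Smad3 from 24.7% to 63.9%, and Smad6 from 13.0% to 60.2%. Tgfbr1 stayed near the same rank, 15.0% in MEFs and 13.7% in ESCs. Smad7 moved the other way, from 16.5% in MEFs to 5.01% in ESCs. Scores within a list depend on the depth of its libraries, which is unknown, so ranks are given as a description.

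Regions away from start sites made up most of the difference, and no such counts by place over all genes are given for comparison. In MEFs 35 of the 105 peaks were intronic, compared with 13 and 14 on OSKM days 5 and 10, and 10 in ESCs, while peaks over the start sites of the genes themselves numbered 10, 8, 10 and 8. Upstream peaks numbered 27, 15, 13 and 12 in the same order, and downstream peaks 21, 12, 15 and 11. Without any peak over an annotated start site of any gene, the loci held 84 peaks in MEFs, 42 and 42 on OSKM days 5 and 10, and 34 in ESCs, a count chosen after the data had been seen.

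Of the 145 regions at the loci, 75 were MEF-specific (51.7%, interval 43.7% to 59.7%), compared with 36.4% of the regions of the series. ESC-specific regions were 20 (13.8%, 9.11% to 20.3%, against 28.4%), common ones 30 (20.7%, 14.9% to 28.0%, against 19.1%) and transient ones 20 (13.8%, 9.11% to 20.3%, against 16.1%). The share of MEF-specific regions ran from 2 of 10 at Tgfb1 to 9 of 9 at Tgfbi. With lists of equal length the MEF-specific share was 45.9%, against 28.4% in the series, and the transient share was 23.9%, against 25.9%.

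**Figure D5:**
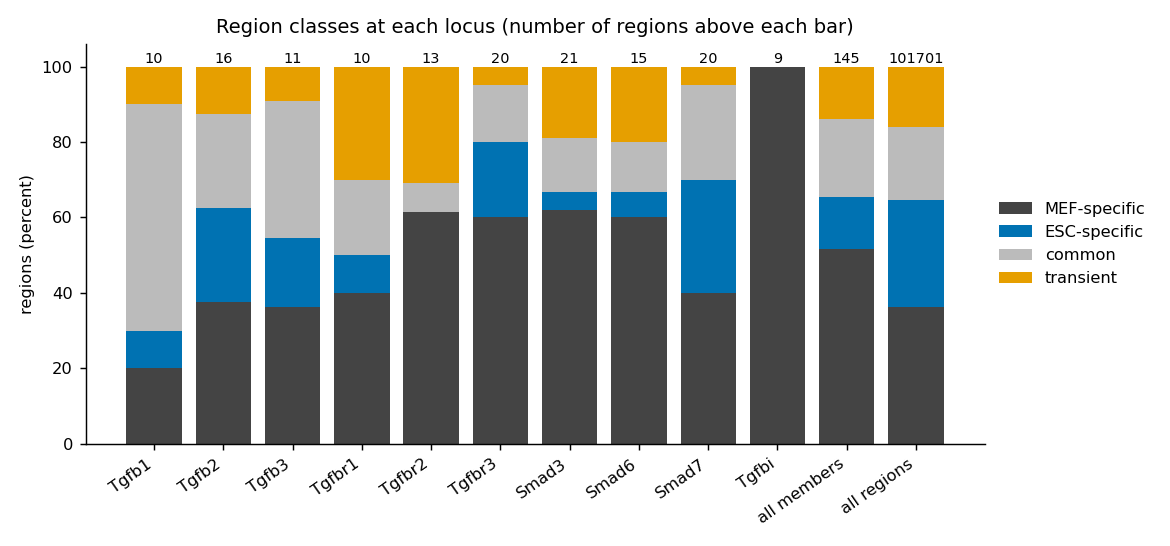
Share of regions in each class (y axis, percent) at the 10 loci, over all of them together and over all regions of the series, with the number of regions above each bar. MEF-specific regions make up 51.7% at the loci together and 36.4% in the series.

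Day 5 peaks were still found at 18 of the 75 MEF-specific regions (24.0%, 15.8% to 34.8%), and day 10 peaks at 19 (25.3%, 16.9% to 36.2%), compared with 14.2% and 14.8% of the MEF-specific regions of the series. A peak on either day was found at 25 of them (33.3%, 23.7% to 44.6%, against 18.9%), and 50 had a peak on neither day. Among the 68 without a start site, 22.1% had a peak at day 5 and 22.1% at day 10, against 12.6% on each day in the series. The loci differed among themselves, from 6 of 9 regions kept on either day at Tgfbi and 4 of 8 at Smad7 to 1 of 13 at Smad3. Of the 20 ESC-specific regions, 2 were already open at day 5 (10.0%, interval 2.79% to 30.1%), and day 10 added 2 more to make 4 (20%, 8.07% to 41.6%), against 10.7% and 12.6% in the series. The 20 transient regions were open at day 5 alone in 5 cases, at day 10 alone in 6 and on both days in 9.

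AP-1 is the dimer of JUN and FOS proteins bound at many fibroblast enhancers, and its letters were found in the 200 bp windows of 14 of the 75 MEF-specific regions (18.7%, 11.5% to 28.9%), compared with 23.0% of those of the series. Tgfbr3 had 3 of the 14, while Smad6 and Tgfbi had 0 of 9 regions each. KLF letters were found in 11 of the 75 (14.7%, 8.39% to 24.4%), against 7.04% in the series. They were in 8 of the 50 with a peak on neither OSKM day (16.0%, 8.34% to 28.5%, against 5.58%). Of the 25 with a peak on either OSKM day, 3 held them (12.0%, 4.17% to 30.0%), near the 13.3% of the series. A KLF share above that of the series was not limited to MEF-specific regions. KLF letters were in 26 of all 145 regions (17.9%, against 11.1%). They were in 4 of 20 ESC-specific and 4 of 20 transient regions (8.07% to 41.6% each, against 10.2% and 10.9%). Of the 30 common regions 7 held them (23.3%, against 20.2%). SOX letters occurred in 4 and octamer letters in 2 of the 20 transient regions, against 15.5% and 4.11% of the transient regions of the series. The SMAD palindrome, a motif of SMAD3 and SMAD4, was found in 1 of the 145 regions, the common region over the start site of Smad7, and in 0.199% of the regions of the series. A shorter SMAD element (CAGACA, either strand) was found in 19 of the 145 (13.1%, 8.55% to 19.6%, against 18%). A match describes these letters in these windows and does not show that a factor was bound.

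RefSeq promoter sequences of GRCm38 were matched for 7 of the 10 genes, all but Tgfb3, Tgfbr3 and Smad7. In the 250 bases before their start sites, AP-1 letters were found in 0 of their 8 promoters (Tgfbr1 has 2), where 4.46% of 32851 promoters held them, and KLF letters in 5 of 8, against 27.4% of all promoters. G and C made up 52.8% to 75.2% of the bases in these 8 windows. The share over all promoters is not matched for this content, and the letters searched for KLF are mostly G and C. The promoter bases of Smad3, Smad6, Tgfbr2 and the upstream promoter of Tgfbr1 lay wholly within a peak in all 4 lists, and those of Tgfbi wholly within one in MEFs and at day 10, for 102 of 250 bases at day 5 and for 0 in ESCs. Those of Tgfb1 also lay wholly within a peak in MEFs and at day 10, and for 0 bases at day 5 and in ESCs.

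A wider list of 42 other genes of the pathway was counted in the same way. Their counts, with a peak in 2 windows counted for each gene, summed to 342 in MEFs, 205 and 223 on OSKM days 5 and 10, and 255 in ESCs. Of these genes, 10 (23.8%, against 13.7% of all protein-coding genes) were higher in MEFs than in ESCs and 2 (4.76%, against 10.4%) higher in ESCs. From MEFs to day 5, 17 genes (40.5%, against 26.5%) were higher in MEFs and 1 (2.38%, against 2.29%) at day 5. From day 10 to ESCs, 2 (4.76%, against 3.82%) were higher at day 10 and 7 (16.7%, against 21.6%) in ESCs. A start-site peak was found at 36 of the 42 genes in MEFs (85.7%, against 60.0%), at 32 and 31 on OSKM days 5 and 10 (76.2% and 73.8%, against 52.1% and 56.0%), and at 35 in ESCs (83.3%, against 55.8%). By role, 3 of 5 other SMAD genes (Smad2, Smad4 and Smad5), 3 of 10 latency and activation genes, 2 of 9 cofactors and regulators, 1 of 5 targets, 1 of 10 other receptor genes and 0 of 3 activin ligand genes were higher in MEFs than in ESCs, beside the 13.7% of all genes. Higher in ESCs were 1 latency gene (Nrros) and 1 regulator (Zfyve9).

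The largest differences toward MEFs in the wider list were at Ltbp1, which encodes a protein that holds latent TGF-beta in the matrix (28 peaks in MEFs, 9 and 11 on OSKM days 5 and 10, and 14 in ESCs), and at Ski, a corepressor of SMAD proteins (17, 10, 14 and 8). Smad5, a SMAD of the BMP branch, had 8, 2, 1 and 1 peaks, and Acvr1b, an activin type I receptor gene, had 15, 10, 9 and 9. Smad5 lies on chromosome 13, as Tgfbi does, and whether their windows share peaks was not examined. Toward ESCs, Zfyve9, which encodes the adaptor SARA, had 5 peaks in MEFs, 2 and 2 on OSKM days 5 and 10, and 11 in ESCs. The ubiquitin ligase gene Smurf1 had 7, 3, 3 and 10 peaks, Nrros, a gene for an anchor of latent TGF-beta, 1, 1, 1 and 3, and Tgif1, a SMAD corepressor gene, 7, 4, 6 and 9.

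The protein-coding genes whose 4 counts came closest to those of Smad3, by the sum of absolute differences over the 4 lists, were Hoxa9 (16 MEF, 5 day 5, 8 day 10 and 5 ESC peaks, a sum of 3), Inpp5a, Lrrk1 and Man1c1 (a sum of 4 each) and Disc1 (a sum of 5). They were chosen for these counts, so their likeness to Smad3 is fixed by the choice.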

How the data were processed

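ATAC-seq was performed on 2 libraries in each of 4 groups, 8 in all. Groups were read from titles. The authors aligned reads to mm10 with bowtie2 (2.2.0 in the submitters' processing notes) using very sensitive settings, and filtered out poorly mapped reads (labels and methods differ on the threshold) and mitochondrial reads. The peak caller, and whether read ends were shifted for the transposase, were not given in the sources used here. The authors deposited 1 peak list per group, named as an intersection. The deposited columns used were a score, a fold enrichment (ratio) and a −log10 q-value. Peak names repeat within a list, which holds 80 to 406 more peaks than names. An interval therefore looks like the piece of a replicate 1 peak that replicate 2 also covered. Score and fold then belong to the whole peak. These values were used to rank or filter peaks within a list. Read depth is unknown, and 0 columns belonged to other series.

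Gene bodies and start sites came from GENCODE mouse release M21. Peaks with at least 1 bp in a gene body or the 50 kb to each side were counted per list, a gene being called at 2 more peaks and 2 times as many. Peaks within 400 bp were merged into regions, and motif letters were searched in 200 bp windows. The counting was tested on simulated peaks. All 10 genes were described. Other genes were named by the 4 largest differences in each direction and the 5 counts closest to Smad3, and of the windows selected by peak length and motif match, those the text turns on were printed. The genes, lists and rules were chosen with earlier results of these data known. Alternatives to flank, list length, q-value, merging and counting were computed. Python 3.11.15, pandas 2.3.3 and numpy 2.4.6 were used.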

Additional observations from a re-analysis of the deposited data

How the results depend on the processing

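Of 129 alternative values, 113 kept their size (counts within 1.5 times, shares within the interval of the reported share) and 16 moved. MEFs held the most peaks over the loci under each alternative, but the order of other lists and the direction at single loci turned under some. A flank of 20 kb gave 69 peaks in MEFs, 39 at day 10 and 30 in ESCs, and one of 100 kb 79 in ESCs, by construction of the window. At 100 kb ESCs were above day 5 (74) and below day 10 (82). Loci with more peaks in MEFs than in ESCs were 8 with a flank of 20 kb (2 equal), 9 with lists of equal length (1 equal) and 8 with the nearest start site (1 equal, and Tgfb3 with fewer). Tgfbr1 had more peaks at day 5 than in MEFs with a flank of 20 kb, with lists of equal length and with the nearest start site. With 35226 peaks in each list the MEF count was 69, the difference between MEFs and ESCs 36, the loci higher in MEFs than at day 5 were 2, and the transient share was 23.9%. Loci higher at day 10 than in ESCs were 1 with a flank of 100 kb and 2 by peak length, and loci higher at day 10 than at day 5 were 1 with either other flank (Smad3 at 20 kb, Smad6 at 100 kb). Counting any difference in number gave 10 loci higher in MEFs than in ESCs (42.2% of all genes) and 9 higher in MEFs than at day 5 (63.2%). Searching whole regions raised the share of MEF-specific regions with AP-1 letters to 38.7% (47.0% in the series) and with KLF letters to 37.3% (20.9%). In that search KLF letters were in 13 of 20 ESC-specific regions (25.5% in the series), 5 of 20 transient ones (23.9%) and 19 of 30 common ones (65.4%). Between MEFs and ESCs, Smad6 was not called with lists of equal length, and Tgfbr1 was called only by midpoint, by joined pieces and by any difference. Joining intervals that share a peak name, an alternative chosen after seeing the data, left 104 peaks in MEFs and 48 in ESCs, and 3 loci, Tgfb3 among them, higher at day 10 than at day 5. The background over genes with windows of like length was also added after seeing the data. No paired analysis was possible because the 2 libraries of a group were merged into 1 list before deposit, which also kept either library from being left out. Unknown depth limits every comparison between lists.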
